A study of Drosophila melanogaster with 8 samples.

Results

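Cullin-RING ubiquitin ligases are built on a cullin scaffold, which holds a RING protein and its ubiquitin-conjugating enzyme at one end and a substrate receptor at the other. Cul2 reaches its receptors through the adaptor pair EloB and EloC (elongins B and C), and Vhl, the fly counterpart of the von Hippel-Lindau tumour suppressor, is the best-known receptor of this ligase. Vhl recognises the hypoxia factor Sima after it has been hydroxylated by the oxygen-dependent enzyme Hph, so that Sima is degraded when oxygen is plentiful. Attachment of the ubiquitin-like protein Nedd8 activates cullins, and the COP9 signalosome removes it again. FBXO11, the gene targeted in these flies, encodes an F-box protein, and F-box proteins are receptors of the Cul1 ligase, a relative of the Cul2 ligase.

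The genes described here are Cul2, EloB, EloC and Vhl, which are 4 of the 17676 genes counted. They were chosen by name, as the cullin, its adaptors and its receptor, after a higher Cul2 level in RNA1 heads had been seen in these data. Their differences between knockdown and control are therefore given as a description, with no test. The RNA came from adult heads of Drosophila melanogaster, with FBXO11 knocked down in neurons. The RNA2 group had 2 libraries, whose genotype labels differ (FBXO11 KD2 and FBXO11 KD3), the RNA1 group had 3 libraries of genotype FBXO11 KD1, and the control group had 3 libraries of genotype FBXO11 WT. The titles of all groups, controls included, carry the words neuronal knockdown, and every library is labelled batch 1. The labels used here name neither the neuronal driver nor the RNA interference lines, and genetic background and knockdown cannot be told apart. Separate pools of flies are not stated for the replicates, so the p-values reflect sample-to-sample spread that could be technical. For RNA2, whose 2 libraries differ in genotype label, the spread and the calls may also mix 2 genotypes.

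Total counts lay between 32434805 and 41589222 per library. Levels are given as CPM, which are counts scaled to a common library size with TMM factors, and a gene is called when its edgeR quasi-likelihood FDR (Benjamini-Hochberg over all 11081 genes tested) was under 0.05. FBXO11 averaged 48.7 ± 5.54 CPM in RNA2 (SD, n = 2), 39.9 ± 2.52 CPM in RNA1 (n = 3) and 103 ± 5.29 CPM in control (n = 3), and every knockdown library lay below every control. Markers of neurons, photoreceptors, glia, muscle, fat body and hemocytes were all present, the summed neuron markers at 5390 to 5817 CPM in RNA2, 4949 to 6153 CPM in RNA1 and 5702 to 6328 CPM in control. ChAT lay below the controls in every knockdown library, and Syt1 in RNA2. The other neuron markers overlapped the controls in both. The 8 fat body markers summed to 2833 to 4067 CPM in RNA2, 2494 to 3873 CPM in RNA1 and 2415 to 2922 CPM in control. Of these, Lsp2 and bmm lay above the controls in every knockdown library, and the marker 'to' lay below them. Each other fat body marker overlapped the controls in at least 1 knockdown. The 6 hemocyte markers summed to 504.4 to 548.6 CPM in RNA2, 454.3 to 572.1 CPM in RNA1 and 423.2 to 441.0 CPM in control, so both knockdowns lay above the controls. Hml, NimC1, eater and Sr-CI each lay above the controls in every knockdown library. Of the more abundant markers, Pxn overlapped the controls in both knockdowns and crq did so in RNA2. The 7 glia markers summed to 2293 to 2592 CPM in RNA2, 2516 to 2787 CPM in RNA1 and 2724 to 2904 CPM in control, and RNA2 lay below the controls. In RNA1 the sums overlapped the controls, but repo, alrm and wrapper lay below every control there too. They were at 42.5 to 45.2, 75.3 to 86.4 and 32.3 to 40.4 CPM in RNA1. In control they were at 46.0 to 50.8, 91.6 to 95.6 and 52.5 to 62.8 CPM. For moody, Gs2, Eaat1 and nrv2, RNA1 and control overlapped. The 8 gut enzyme markers summed to 88.4 to 179.5 CPM in RNA2, 61.2 to 194.5 CPM in RNA1 and 23.2 to 34.6 CPM in control. The RNA2 sums rested largely on Amy-p and Amy-d, at 43.5 to 91.8 and 37.3 to 79.8 CPM. Both also lay above every control in all RNA1 libraries, at 23.4 to 52.3 and 30.6 to 71.2 CPM. In control they were at 5.76 to 11.34 and 10.45 to 15.62 CPM. In RNA1, Jon65Aiii, LysD and betaTry also ranged up to 32.1, 37.0 and 13.0 CPM. Mal-A1 overlapped between groups, at 6.35 to 7.49 CPM in RNA2, 6.09 to 7.17 CPM in RNA1 and 6.855 to 7.533 CPM in control. Both alphaTry and betaTry had no count in any control and reached at most 0.334 and 0.473 CPM in RNA2. Jon66Ci had none in any knockdown library and at most 0.02625 CPM in control. Of the eggshell and germline markers, 9 of 10 entries were matched, and they summed to 2.37 to 2.54 CPM in RNA2, 2.18 to 2.73 CPM in RNA1 and 7.04 to 10.5 CPM in control. Of these, 6 were under 1 CPM in every library. Cp38 made most of the control sum, at 4.59 to 8.43 CPM, against 0.167 to 1.33 CPM in RNA2 and 0.319 to 0.723 CPM in RNA1. The germline gene vas was also lower in both knockdowns, while Cp18 was higher in RNA1 (0.745 to 0.862 CPM) than in control (0.194 to 0.577 CPM). These are bulk samples, so more cells of a type and more RNA per cell cannot be told apart.

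Cul2, the scaffold, was the member that set RNA1 apart. Cul2 (FBgn0032956, BDGP6 2L:21658735-21663698, plus strand, overlapping no annotated gene) had 130.0 and 128.4 CPM in the RNA2 libraries, 243.1, 202.4 and 187.1 CPM in the RNA1 libraries, and 120.6, 122.7 and 131.2 CPM in the controls. All 3 RNA1 libraries lay above the other 5, and both RNA2 libraries lay inside the control range. The raw counts behind these levels were 4351 to 4667 reads in RNA2, 6161 to 9135 in RNA1 and 4626 to 5048 in control. Group means were 129.2 ± 1.12 CPM in RNA2 (SD, n = 2), 210.8 ± 28.9 CPM in RNA1 (n = 3) and 124.8 ± 5.61 CPM in control (n = 3). The log2 fold change against control was 0.05 ± 0.11 (SE) in RNA2 and 0.76 ± 0.10 in RNA1, or 1.04-fold and 1.69-fold. The coefficient of variation of Cul2 was 13.7% in RNA1 and 4.49% in control. In RNA2 it was 0.867%, from only 2 libraries whose genotype labels differ. The median tested gene had 8.79% in RNA2, 10.5% in RNA1 and 7.83% in control. Leaving out each library in turn kept the RNA1 value between 0.64 and 0.84 on the log2 scale, and the lowest came without RNA1 replicate 1.

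**Figure D1:**
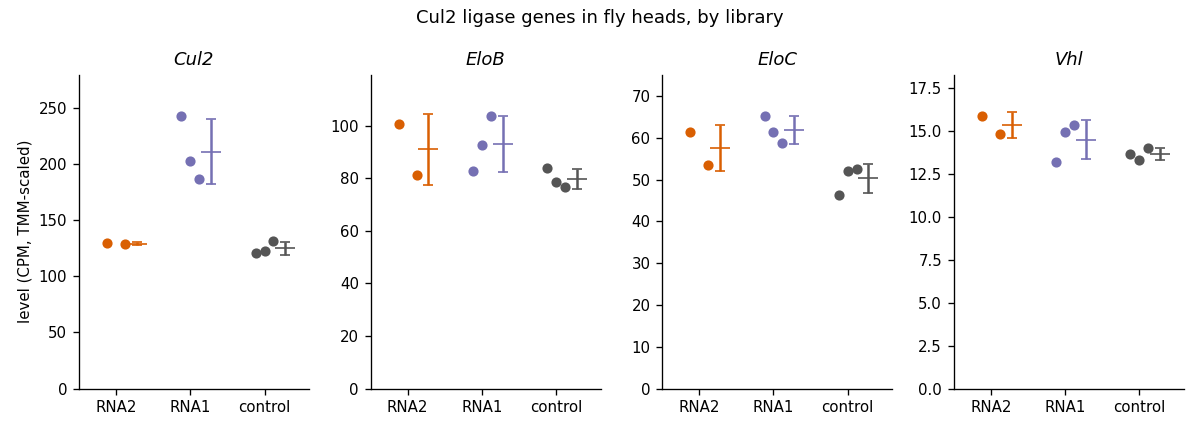
Level of each Cul2 ligase gene in CPM (vertical axes, each starting at 0) in every library of RNA2 (2 points), RNA1 (3) and control (3), with the group mean ± SD beside the points. Cul2 stood at 187.1 to 243.1 CPM in RNA1, above the 5 other libraries, while EloB, EloC and Vhl differed less between groups.

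Between the knockdowns themselves, Cul2 was lower in RNA2 than in RNA1 by a margin that passed the test. The log2 difference, RNA2 minus RNA1, was -0.71 ± 0.11 (edgeR FDR 0.037), and the 2 RNA2 libraries lay below all 3 RNA1 libraries. The RNA1 libraries of this test are those in which the higher level was first seen, so it is not independent of the choice of the gene. Of the 4 members, 1 was called here, against 0.28% of all tested genes in either direction and 0.0902% called lower, which is 10 of 11081 genes. The set was chosen after the higher Cul2 level in RNA1 had been seen, so this count cannot show an excess over that share. Cul2 was also the 1 member of 4 whose RNA2 and RNA1 libraries did not overlap, as was the case for 20.9% of all tested genes. The call was not stable. It held in 8 of 16 alternatives, with FDR values from 6.08e-06 (DESeq2) to 0.25 (without RNA2 replicate 1), while the log2 difference stayed between -0.79 and -0.59 with any 1 library left out. It was lost when RNA2 was fitted with RNA1 alone (FDR 0.222), and when any 1 control was left out (0.0785 to 0.0942). Leaving out RNA1 replicate 2 gave 0.111, and leaving out RNA2 replicate 2 gave 0.11. FBXO11 itself differed by log2 0.29 ± 0.09 between RNA2 and RNA1, with both RNA2 libraries above the 3 RNA1 libraries, and was not called (edgeR FDR 0.437).

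The adaptors EloB and EloC were somewhat higher in both knockdowns than in control. EloB, a ubiquitin-like protein that pairs with EloC, had 100.6 and 81.4 CPM in RNA2, 82.7, 92.8 and 103.8 CPM in RNA1, and 83.8, 78.8 and 76.7 CPM in control. The groups overlapped, since RNA2 replicate 2 and RNA1 replicate 1 lay inside the control range. EloB stood at log2 0.19 ± 0.12 in RNA2 and 0.22 ± 0.10 in RNA1 against control, and without RNA2 replicate 1 the RNA2 value was 0.03. Its order inside each knockdown was that of the gut enzyme sums, which were 179.5 and 88.4 CPM in RNA2 replicates 1 and 2 and 61.2, 130.6 and 194.5 CPM in RNA1 replicates 1, 2 and 3. In the controls the sums were 23.2, 32.2 and 34.6 CPM and ran opposite to EloB. Their part in the EloB values was not tested. Cul2 ran in the order of these sums in RNA2 and in control and in the opposite order in RNA1, and their part in its values was not tested.

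EloC, the Skp1-like partner that docks on the cullin and on the receptor, had 61.4 and 53.6 CPM in RNA2, 65.3, 61.5 and 58.9 CPM in RNA1, and 46.3, 52.0 and 52.6 CPM in control. All 5 knockdown libraries lay above all 3 controls, as they did for the hemocyte marker sums, whose part was not tested. The log2 fold change against control was 0.19 ± 0.09 in RNA2 and 0.30 ± 0.08 in RNA1, and the RNA2 value was 0.09 without RNA2 replicate 1. EloC is at BDGP6 2R:19445085-19446286 (FBgn0266711, minus strand) and EloB at 3R:20578222-20579850 (FBgn0023212, minus strand), and neither overlaps another annotated gene. Between RNA2 and RNA1, the differences were log2 -0.03 ± 0.12 for EloB (edgeR FDR 0.966) and -0.11 ± 0.09 for EloC (0.847), and the libraries overlapped for both.

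Vhl, the receptor, was the least abundant member and lay within a narrow range in all groups. It had 15.9 and 14.8 CPM in RNA2, 13.2, 14.9 and 15.3 CPM in RNA1, and 13.6, 13.3 and 14.0 CPM in control, from 496 to 570 reads per library. Both RNA2 libraries lay above the controls, while RNA1 replicate 1 lay below them. The log2 fold change against control was 0.17 ± 0.10 in RNA2 and 0.09 ± 0.09 in RNA1, and RNA2 minus RNA1 was 0.08 ± 0.10 (edgeR FDR 0.893). Vhl (FBgn0041174, BDGP6 2R:11279725-11281033, plus strand) shares 550 bp with CG9062 on the opposite strand, and since the strand setting of the counting is not given in the sources used here, its level is uncertain. CG9062 stood at log2 0.07 in RNA2 and -0.02 in RNA1 against control. Across the members, the groups did not overlap for 2 of 4 genes in RNA2 against control (EloC and Vhl) and for 2 of 4 in RNA1 against control (Cul2 and EloC). Of all tested genes, the groups did not overlap for 38.9% in RNA2 against control and 33.6% in RNA1 against control, while 3.78% and 10.3% were called by edgeR. All 4 members had positive fold changes in both comparisons, which share the control libraries. The median tested gene stood at log2 0.01 in both comparisons.

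Divided by the merged exon length, the levels ran in the order EloC, EloB, Cul2, Vhl in every group. EloC averaged 87.9 ± 8.46 CPM per kb in RNA2, 94.6 ± 4.95 in RNA1 and 76.9 ± 5.28 in control, and EloB averaged 75.4 ± 11.3, 77.1 ± 8.75 and 66.1 ± 3.01 CPM per kb in the same groups. The libraries of these neighbours overlapped in RNA2 but not in RNA1 or control, and the level of EloC per kb was 1.02 to 1.46 times that of EloB across the 8 libraries. Cul2 averaged 37.7 ± 0.327 CPM per kb in RNA2, 61.5 ± 8.44 in RNA1 and 36.4 ± 1.64 in control. In RNA1 it overlapped EloB, since Cul2 reached 70.9 CPM per kb in replicate 1, where EloB had 68.5. Vhl averaged 11.7 ± 0.573 CPM per kb in RNA2, 11.1 ± 0.858 in RNA1 and 10.4 ± 0.276 in control, about the middle of all tested genes (percentiles 50.5, 48.9 and 47.6). Cul2 ranked at percentile 81.8 in RNA2, 88.9 in RNA1 and 80.6 in control. The ratio of Cul2 to EloC per kb was 0.431 ± 0.0377 in RNA2, 0.649 ± 0.0547 in RNA1 and 0.474 ± 0.0232 in control, and the 3 RNA1 libraries (0.607 to 0.711) lay above the others. The ratio of Vhl to Cul2 was 0.311 ± 0.0125 in RNA2, 0.183 ± 0.037 in RNA1 and 0.286 ± 0.00875 in control, lowest in RNA1. The genes were chosen after the higher Cul2 level in RNA1 had been seen. Both ratios therefore restate that level and are no separate result about the make-up of the ligase. The level of Vhl is also uncertain, as stated above.

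**Figure D2:**
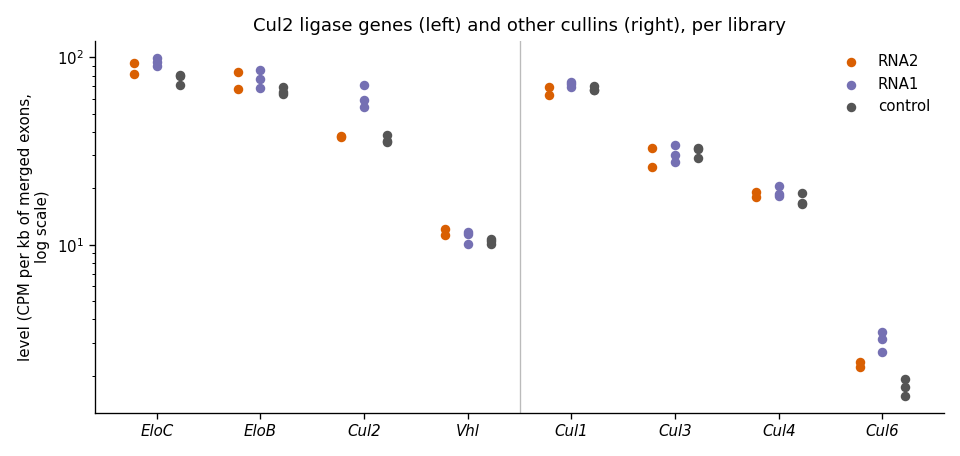
Level per kb of merged exons (log axis) of the Cul2 ligase genes, left of the line, and the other measured cullins, right of it, in each library of RNA2, RNA1 and control (1 point per library). EloC and EloB lie highest among the members and Vhl lowest, and the 3 Cul2 points of RNA1 lie above those of RNA2 and control.

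The other cullins, which carry different receptors, were set beside Cul2 with their RING partners. The pathway lists, here and in the next paragraphs, were chosen with earlier results of these data known. The FDR values of their genes are therefore not independent of that choice. Cul1, the scaffold that F-box proteins such as FBXO11 use, averaged 275.0 ± 18.2 CPM in RNA2, 298.4 ± 8.75 CPM in RNA1 and 283.1 ± 8.12 CPM in control, and was not called in either comparison (edgeR FDR 0.818 and 0.532). Cul3 averaged 159.2 ± 26.6 CPM in RNA2, 165.8 ± 17.4 CPM in RNA1 and 169.6 ± 11.4 CPM in control, and Cul4 averaged 63.1 ± 2.95 CPM in RNA2, 65.4 ± 4.46 CPM in RNA1 and 59.0 ± 4.35 CPM in control, and neither was called. Cul6, a cullin of low level in heads, had 4.93 and 5.25 CPM in RNA2, 7.58, 5.89 and 6.95 CPM in RNA1, and 3.47, 4.28 and 3.86 CPM in control. All RNA1 libraries lay above all RNA2 libraries, and these above all controls. Cul6 rose in RNA1 by log2 0.82 ± 0.15 (edgeR FDR 0.00972) and stood at 0.40 ± 0.16 in RNA2 (FDR 0.235). The RING proteins Roc1a and Roc2 were not called, nor was Roc1b, which had under 1 CPM in every library. Cul5 was not analysed here.

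Nedd8, the modifier that activates cullins, rose in RNA1. It had 32.1 and 35.5 CPM in RNA2, 42.9, 38.4 and 36.4 CPM in RNA1, and 27.7, 30.5 and 29.1 CPM in control. Every RNA1 library lay above every RNA2 library, and every RNA2 library above the controls. Nedd8 rose in RNA1 by log2 0.43 ± 0.09 (edgeR FDR 0.0144) and stood at 0.22 ± 0.10 in RNA2 (FDR 0.267). The difference between RNA2 and RNA1 was not called for Cul6 or Nedd8 (edgeR FDR 0.593 and 0.657), so their responses are not shown to differ between the knockdowns. Cul1 shares 745 bp with Or43b on the opposite strand, Cul6 shares 52 bp with CR14117 and Cul4 shares 47 bp with Tmem63, so their levels are uncertain. The Nedd8 call was lost without control replicate 1 (FDR 0.0656) or 3 (0.0561), and that of Cul6 held in 16 of 16.

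Across the pathway genes, 40 of 43 entries were matched and 39 tested, and 2 rose and 0 fell in RNA1 by edgeR, against 5.01% of all tested genes called higher and 5.25% called lower. At an unadjusted p under 0.05, 8 were higher and 3 lower in RNA1, DESeq2 called 4 higher and 1 lower, and limma-voom called 2 higher and 0 lower. The genes that DESeq2 added were CSN8 and Hph (higher) and tgo (lower). In RNA2, edgeR called 0 of 39 in either direction, against 1.76% of all tested genes called higher and 2.02% lower. There 5 were higher and 2 lower at an unadjusted p under 0.05, limma-voom called 0 and DESeq2 called btl lower. Between RNA2 and RNA1, each of edgeR, limma-voom and DESeq2 called 0 of 39, with 0 higher and 1 lower at an unadjusted p under 0.05. The median pathway gene stood at log2 0.02 in RNA2 and 0.06 in RNA1 against control. The count of 2 in RNA1 was 1 without control replicate 1 or 3, and 4 with library totals in place of TMM. As a part of 39, the 2 called higher in RNA1 lie near the share of all tested genes.

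By role, the 15 tested genes of neddylation and the COP9 signalosome included 1 that rose in RNA1, with a list median of log2 0.06 in RNA2 and 0.10 in RNA1. Of 7 proteins that bind the elongins, such as the SOCS-box proteins and EloA, the partner of EloB and EloC in the elongin transcription factor, no test (edgeR, DESeq2 and limma-voom were run) called a gene in any comparison, and 1 had an unadjusted p under 0.05 in RNA1. EloA stood at log2 0.16 ± 0.09 in RNA2 and 0.25 ± 0.08 in RNA1. Fem-1, named for a worm protein that is a receptor of the Cul2 ligase, was spread widely, with 139.6 ± 73.5 CPM in RNA2, 160.4 ± 30.1 CPM in RNA1 and 206.2 ± 41.7 CPM in control. The hypoxia branch, which holds sima, its partner tgo, Hph and genes that low oxygen induces, had 0 of 7 genes called by edgeR in either knockdown. Of all tested genes, edgeR called 3.78% in RNA2 and 10.3% in RNA1. The 0 of 7 lies near these shares, as do the counts of the lists above. At an unadjusted p under 0.05, 1 was higher and 2 lower in RNA2, and 1 was higher and 3 lower in RNA1. The transcript of sima, the target of Vhl, averaged 220.8 ± 4.55 CPM in RNA2, 209.1 ± 7.80 CPM in RNA1 and 216.2 ± 6.78 CPM in control. That of tgo stood at log2 -0.23 ± 0.10 in RNA2 and -0.31 ± 0.09 in RNA1 (edgeR FDR 0.273 and 0.0566). All knockdown libraries lay below all controls for tgo, and DESeq2 called it lower in RNA1 (FDR 0.0305). Hph averaged 85.8 ± 5.65 CPM in RNA2, 84.4 ± 6.79 CPM in RNA1 and 70.6 ± 0.659 CPM in control, with log2 0.28 ± 0.08 and 0.26 ± 0.08 in the knockdowns (FDR 0.106 and 0.0598). The transcript of chrb, an inhibitor of TOR signalling that low oxygen induces, stood at log2 -0.56 ± 0.20 in RNA2 and -0.46 ± 0.18 in RNA1 (FDR 0.193 and 0.148). The tracheal FGF receptor gene btl, a target of Sima, stood at -0.40 ± 0.10 in RNA2 and -0.21 ± 0.09 in RNA1 (FDR 0.0665 and 0.176). Of the other genes induced by low oxygen, Ldh stood at -0.03 ± 0.20 in RNA2 and 0.0045 ± 0.18 in RNA1, and scyl at -0.40 ± 0.24 in RNA2 and -0.30 ± 0.21 in RNA1. The median of the hypoxia list was log2 -0.23 in RNA2 and -0.21 in RNA1.

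**Figure D3:**
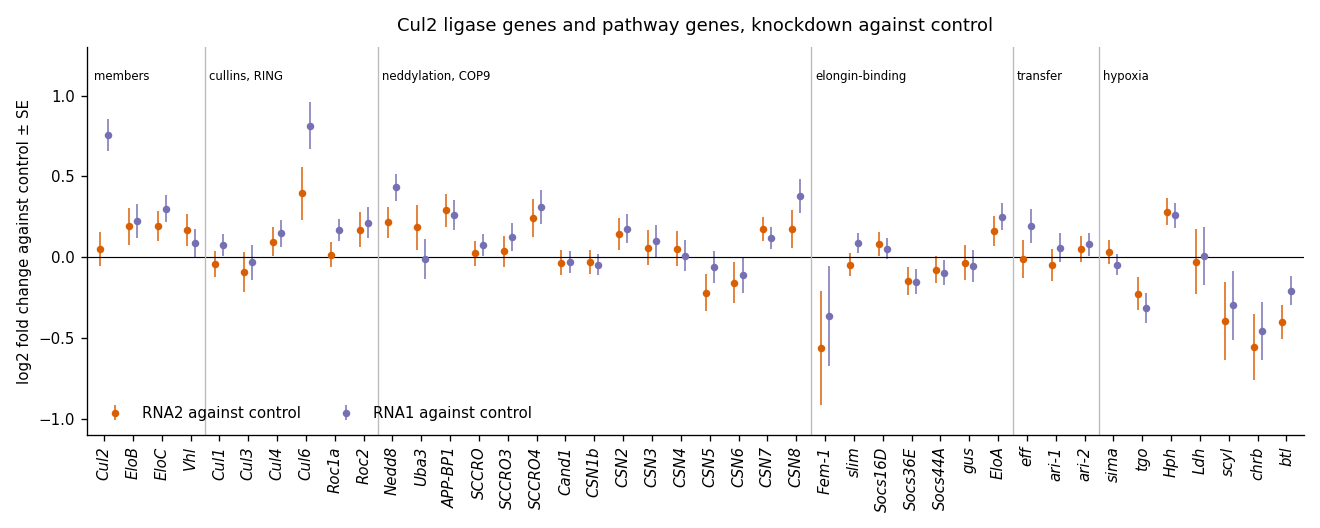
Log2 fold change against control with its SE (vertical axis) for the Cul2 ligase genes and the tested pathway genes except Roc1b, in RNA2 and RNA1. Cul2 stands at 0.05 in RNA2 and 0.76 in RNA1, and Cul6 and Nedd8 are the pathway genes called by edgeR, all in RNA1.

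The neighbourhood of Cul2 was examined to see whether its level moved alone. Of 11 genes whose start lies within 50 kb of that of Cul2, 10 were tested and 0 were called by edgeR in any of the 3 comparisons. Of all tested genes, 3.78% were called in either direction in RNA2, 10.3% in RNA1 and 0.28% between the knockdowns. With so few neighbours, 0 calls lie near these shares and do not show that Cul2 moved alone. At an unadjusted p under 0.05, 0 were higher and 1 lower in RNA2, 1 was higher and 2 lower in RNA1, and 0 were higher and 1 lower in RNA2 against RNA1. DESeq2 called 0 in RNA2, 1 higher and 1 lower in RNA1, and 1 lower in RNA2 against RNA1, while limma-voom called 0 in each. The nearest gene upstream is lncRNA:CR43144, a noncoding RNA on the Cul2 strand that ends 485 bp before Cul2 begins. It had 45 and 43 reads in RNA2 (1.25 and 1.27 CPM), 90, 90 and 119 reads in RNA1 (2.39, 2.50 and 3.61 CPM), and 55, 85 and 49 reads in control (1.43, 2.07 and 1.29 CPM). As for Cul2, all 3 RNA1 libraries lay above the other 5, but RNA1 replicate 3 was highest here and lowest for Cul2. The log2 fold change of lncRNA:CR43144 was -0.34 ± 0.30 in RNA2 (edgeR FDR 0.579) and 0.82 ± 0.25 in RNA1 (FDR 0.0684), and RNA2 minus RNA1 was -1.17 ± 0.30 (FDR 0.243). Downstream, CG2225, which ends 107 bp from Cul2 on the other strand, stood at log2 -0.20 ± 0.09 in RNA2 and -0.28 ± 0.08 in RNA1 (FDR 0.29 and 0.0621). CG2225 shares 1003 bp with asRNA:CR46066 on the opposite strand, so the levels of both are uncertain. The translation factor gene eEF2, the most abundant neighbour, stood at 0.15 ± 0.11 in RNA2 and 0.15 ± 0.10 in RNA1.

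**Figure D4:**
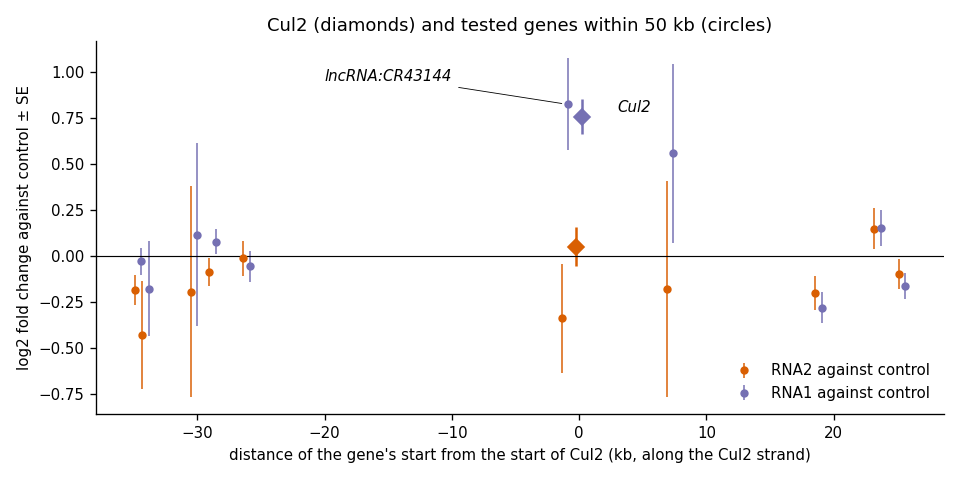
Log2 fold change against control with its SE for Cul2 (diamonds) and the 10 tested genes within 50 kb (circles), by the distance of each gene's start from that of Cul2 in kb, in RNA2 and RNA1. Only lncRNA:CR43144, at log2 0.82, and the sparsely counted asRNA:CR46066, at 0.56, have RNA1 values near that of Cul2, and neither was called by edgeR.

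Around all 4 members, 69 genes were tested within 50 kb, and edgeR called 1 higher and 1 lower in RNA2, 6 higher and 4 lower in RNA1, and 0 between RNA2 and RNA1. Over all tested genes, 1.76% were called higher and 2.02% lower in RNA2, and 5.01% higher and 5.25% lower in RNA1. The RNA1 counts were 2 higher and 2 lower when any 1 control was left out. Between RNA2 and RNA1, 2 neighbours were higher and 3 lower at an unadjusted p under 0.05, DESeq2 called 1 higher and 2 lower, and limma-voom called 0. Next to EloB, Srp14, which encodes a subunit of the signal recognition particle and lies 264 bp away on the other strand, rose in RNA1 by log2 0.36 ± 0.09 (edgeR FDR 0.0329). Next to Vhl, CG9067, which lies 41 bp away on the other strand, rose in RNA1 by log2 0.38 ± 0.09 (FDR 0.0276). Each call held in 9 of 16 alternatives and was lost whenever 1 control or 1 RNA1 library was left out (FDR 0.0631 to 0.118 for Srp14 and 0.0557 to 0.114 for CG9067). The metallothionein gene MtnD, 44.9 kb from EloB, rose in RNA2 by log2 2.22 ± 0.35 and in RNA1 by 2.79 ± 0.32, with 68 to 84 reads in RNA2, 86 to 145 in RNA1 and 13 to 27 in control. Near Vhl, Listericin, an antibacterial peptide gene, fell by 0.54 on the log2 scale in RNA2 and by 0.79 in RNA1, and the RNA2 call held in 8 of 16 alternatives. The cuticle protein genes Cpr47Ee and Cpr47Ef fell in RNA1 by 0.59 and 0.89 on the log2 scale, and CG18336 and CG42336, which overlap on 1 strand, rose by 0.98 and 0.47. The call of CG18336 held in 6 of 16 alternatives, and those of Cpr47Ef, CG42336 and CG5191 in 12 each (highest FDR 0.0816, 0.0922 and 0.0845). That of cer was lost without control replicate 3 (FDR 0.0553). CG5191, cer and Srp14 overlap genes on the opposite strand, so their levels are uncertain. Near EloB, CG5191 fell in RNA1 by 0.41 on the log2 scale, and near EloC, cer, an inhibitor of cysteine proteases, rose in RNA1 by 0.55 on the log2 scale.

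The genes whose levels followed Cul2 most closely over the 8 libraries were CG7607, CG18635, CG34200, CG5498 and Vamp7, with Pearson r of log2(CPM + 1) from 0.974 for CG7607 to 0.970 for Vamp7. The points share their libraries and fall into the study's groups, so r mainly describes a high RNA1 level and carries no test. CG34200 averaged 31.6 CPM in RNA2, 40.9 CPM in RNA1 and 28.3 CPM in control, and Vamp7, a vesicle SNARE protein gene, averaged 74.5, 87.4 and 75.8 CPM in the same groups. CG18635 was at 1.45 CPM in RNA1 and under 1 CPM elsewhere. On the opposite strand, CG7607 shares 968 bp with Plod, Vamp7 84 bp with Marc and CG34200 3 bp with CG7791, so their levels are uncertain. Their log2 fold changes in RNA1, 0.21 for Vamp7 to 2.01 for CG18635, show that a like pattern went with different sizes of change. Nedd8 followed Cul2 with r = 0.891 (rank 128 of 11080 genes) and Cul6 with 0.879 (rank 154). Among the other members, EloC had r = 0.789 (rank 492), EloB 0.316 and Vhl -0.03.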

How the data were processed

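RNA from fly heads was made into stranded mRNA libraries, per the labels' protocols. The authors deposited 1 gene table of raw counts, whole numbers that were not normalized. Per the submitters' processing notes, the tools were bcl2fastq 2.17, cutadapt 1.18, FastQC 0.11.8, STAR 2.6.1, SAMtools 1.8 and DESeq2 1.24.0, with build BDGP6. How reads were assigned to genes and strands is not given in the sources used here. Of 17676 gene IDs, 17549 were matched to a symbol. Positions and exon lengths were read from Ensembl gene models of BDGP6, possibly of another release than the one the authors counted with.

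Counts were analysed with edgeR 4.0.16 in R 4.3.3: filterByExpr by group (minimum count 10, minimum total 15), TMM, and 1 robust quasi-likelihood fit of 3 group means to the 8 libraries. SEs were derived from the fold change and its F statistic. Libraries were grouped by title. DESeq2 1.42.0, limma-voom 3.58.1, other scalings and filters, a replicate block and each library left out were alternatives. The script was tested on simulated data. Chi-square per degree of freedom between libraries of a group was 23.1 to 68.3, so each library counted as 1 replicate. Counts without molecular identifiers carry PCR error beyond counting error. The members and gene lists were chosen with earlier results of these data known. Genes named are the members, FBXO11, all measured cullins, every called pathway gene and neighbour, and the 5 genes most like Cul2; other genes were named where a count was small, after their values were seen. A listed gene is not reported here, and pathway counts leave it out.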

Additional observations from a re-analysis of the deposited data

Results flagged for a closer look

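Cul2 differed between the 2 knockdowns: RNA2 minus RNA1 was log2 -0.71 by the test of the difference itself (edgeR FDR 0.037), with all RNA2 libraries below all RNA1 libraries. The test contains the RNA1 libraries in which the higher level was first seen, and the call was lost in 8 of 16 alternatives.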

How the results depend on the processing

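Cul2 stayed higher in RNA1 than in control under every alternative run (log2 0.64 to 0.84 with 1 library left out) and its RNA2 value against control was 0.03 to 0.08 with 1 library left out and 0.09 with library totals; its mean in RNA2 was 130.3 CPM with library totals. RNA2 minus RNA1 was -0.79 to -0.59 with 1 library left out, -0.72 with the replicate block and -0.70 with RNA1 and RNA2 fitted alone, and the call was lost in both. EloB, RNA2 minus RNA1, ran from -0.19 to 0.11 with 1 library left out, and turned positive without RNA1 replicate 3 (0.05) or RNA2 replicate 2 (0.11). EloB against control ran from 0.029 to 0.33 in RNA2 and from 0.14 to 0.30 in RNA1, EloC from 0.091 to 0.28 in RNA2 and from 0.24 to 0.33 in RNA1, and Vhl from 0.12 to 0.21 in RNA2 and from 0.05 to 0.15 in RNA1. The cause of these shifts was not tested. Same-numbered libraries deviated from their group means with correlations of -0.331 to 0.281. Differently numbered libraries were not compared, so pairing by replicate number is neither shown nor excluded. With the replicate block, the calls over all genes fell to 94 higher and 120 lower in RNA2 against control, 344 higher in RNA1 against control and 3 lower in RNA2 against RNA1, and the neighbours to 0 lower in RNA2 and 2 higher in RNA1.

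Pathway genes called higher in RNA1 were 4 with library totals or DESeq2 and 1 to 3 with 1 library left out; those called lower were 1 in RNA2 and 1 in RNA1 with DESeq2, and 0 to 1 in each with 1 library left out. Neighbours called with a 100 kb window were 4 higher and 2 lower in RNA2 and 11 higher and 7 lower in RNA1; with a 25 kb window RNA2 had 0 higher and 0 lower. DESeq2 called 2 neighbours lower in RNA2, 7 lower in RNA1, and 1 higher and 2 lower in RNA2 against RNA1, and limma-voom called 2 lower in RNA2. With 1 library left out, neighbours called numbered 1 higher and 0 to 2 lower in RNA2, and 2 to 5 higher and 2 to 5 lower in RNA1. Over all genes, DESeq2 called 353 higher and 557 lower in RNA2 against control, and 66 higher and 81 lower in RNA2 against RNA1, where the lower calls were 18 with no filter and 5 with these groups fitted alone. With 1 library left out, all-gene calls ran from 59 to 264 higher and 56 to 360 lower in RNA2 against control, from 233 to 565 higher and 243 to 634 lower in RNA1 against control, and from 14 to 25 higher and 2 to 15 lower in RNA2 against RNA1. Vhl had the fewest reads among the members, 496 to 570 per library.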
